A study of Mus musculus with 8 samples.

Results

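The AP-1 genes described here are Fos, Fosb, Fosl1, Fosl2, Jun, Junb, Jund and Atf3, which are 8 of the 17580 genes in the library tables. They were taken by symbol, and each had counts in all 4 groups of libraries and was found in the table of normalised values. The libraries come from subcutaneous tumours of 4T1, a mouse mammary carcinoma line, grown for 10 days in Balb/c mice. RNA of single cells was read at the 3′ end of transcripts and counted as unique molecules (UMIs). A Bacillus licheniformis protease at 5 mg/ml took the pieces apart over 1 h, and the suspensions were then cleared of red cells, debris and dead cells. The 4 groups were 37C with inhibitor, 37C without inhibitor, 4C with inhibitor and 4C without inhibitor. The inhibitor was actinomycin D, a blocker of transcription, at 2 nM. Each group had 1 suspension, pooled from 6 tumour pieces of different mice, and libraries A and B were aliquots of it. The p-values therefore measure only the spread between aliquots. Digestion at 37C used a heated instrument and digestion at 4C an unheated one, so the effects of instrument and temperature cannot be told apart.

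AP-1 is a transcription factor made of pairs of basic leucine zipper proteins. Fos family proteins bind DNA only when paired with a partner such as a Jun protein, whereas Jun proteins also pair with each other, and Atf3 pairs with Jun proteins or with itself. Fos, Fosb, Jun, Junb and Atf3 are immediate-early or stress-response genes, which cells transcribe within minutes of serum, wounding or other stress without making new protein first, and their short-lived transcripts fade soon after. Fosl1, Fosl2 and Jund are usually described as later or steadier members of the family.

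The authors annotated 654 cells as tumour cells (325), T cells (154), macrophages (109) or NK cells (66). Per library, annotated cells held 195714 to 199929 UMIs at 37C with inhibitor, 158314 to 164586 at 37C without it, 23212 to 44339 at 4C with inhibitor and 52725 to 65149 at 4C without it. Against marker lists, 12 of 12 macrophage, 10 of 10 T cell and 9 of 9 NK cell markers had more UMIs in the type of that name than in any other. T cell markers were nevertheless seen in 73.3% of NK cells at 37C and 69.4% at 4C (Trbc2 gave 268 UMIs in T cells and 54 in NK cells). Of 8 epithelial markers, Krt18, Krt8, Krt7 and Cldn4 gave 650, 241, 39 and 8 UMIs in tumour cells and Krt19 gave 1, while Epcam, Cdh1 and Cldn7 gave 0 there. Among the cells annotated as macrophages, 7 of 92 at 37C and 4 of 17 at 4C held UMIs of mast cell and basophil markers such as Cpa3. Of 23660 distinct barcodes, 318 occurred in more than 1 library, 1 of them an annotated cell.

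The promoters of Fos, Jun and Atf3 are shown because these 3 genes rose together at 37C without inhibitor and because each holds a short element of the kind that AP-1 and its relatives bind. All are RefSeq sequences on build GRCm38.p6, from 250 bases before to 50 bases after the RefSeq start, written 5′ to 3′ along the gene. Fos lies at chr12:85473640-85473939 on the plus strand, Jun at chr4:95052173-95052472 on the minus strand and Atf3 at chr1:191183284-191183583 on the minus strand. Capitals in Fos mark TGACGT, the core of a cyclic-AMP response element, and then a TATA box. Capitals in Jun mark TGACATCA, a variant AP-1 site. Capitals in Atf3 mark the same core as in Fos, which there stands on the opposite strand and so reads ACGTCA.
Fos: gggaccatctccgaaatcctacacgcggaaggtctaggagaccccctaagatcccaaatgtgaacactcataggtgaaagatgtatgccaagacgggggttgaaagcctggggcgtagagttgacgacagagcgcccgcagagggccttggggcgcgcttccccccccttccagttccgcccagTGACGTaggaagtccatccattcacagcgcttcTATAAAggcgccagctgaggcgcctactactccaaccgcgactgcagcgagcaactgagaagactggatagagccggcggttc
Jun: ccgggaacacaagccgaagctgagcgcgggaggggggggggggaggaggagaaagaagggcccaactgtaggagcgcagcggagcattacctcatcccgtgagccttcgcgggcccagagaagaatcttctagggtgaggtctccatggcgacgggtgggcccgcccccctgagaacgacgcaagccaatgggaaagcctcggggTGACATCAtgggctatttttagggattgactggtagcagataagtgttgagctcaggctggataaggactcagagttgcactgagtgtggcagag
Atf3: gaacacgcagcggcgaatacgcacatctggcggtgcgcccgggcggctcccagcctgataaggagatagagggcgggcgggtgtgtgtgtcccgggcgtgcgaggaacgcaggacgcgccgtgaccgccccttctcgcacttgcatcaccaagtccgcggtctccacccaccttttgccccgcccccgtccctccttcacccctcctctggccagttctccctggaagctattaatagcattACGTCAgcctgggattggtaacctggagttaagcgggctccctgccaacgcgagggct
TGACGT began 66 bases before the start of Fos and TATAAA 33 bases before it. TGACATCA began 45 bases before the start of Jun, and ACGTCA 8 bases before the Atf3 start. On both strands, TGACGT occurred in 7.51% of the 32851 mouse promoters of this length and TGACATCA in 3.62%, while TATAAA on the given strand occurred in 8.32%. The commoner AP-1 site TGANTCA, present in 7.81% of promoters on either strand, was in none of the 7 member promoters of the table. Fosb and Jund also rose at 37C without inhibitor, and their promoters held none of the motifs searched. These motifs were chosen with the promoters in view, and a match describes letters only. The RefSeq start used for Atf3 is not the outermost start of that gene in the GENCODE annotation. The start used for Jund also differs from its start there.

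By that annotation of GRCm38, Fos (ENSMUSG00000021250.13) spans 85473890 to 85477273 on chromosome 12, Jun (ENSMUSG00000052684.4) 95049034 to 95052222 on chromosome 4, and Atf3 (ENSMUSG00000026628.13) 191170296 to 191218039 on chromosome 1. Fosb spans 19302696 to 19310051 on chromosome 7, Fosl1 5447547 to 5455946 on chromosome 19, and Fosl2 32135801 to 32157842 on chromosome 5. Junb, at 84974484 to 84978718, and Jund, at 70698949 to 70700616, both lie on chromosome 8. The 3′ end of Junb overlaps Prdx2, and that of Fosl1 overlaps Ccdc85b. The strand setting of the counting is not given in sources used here, so UMIs of these overlapping pairs could have been shared.

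The first comparison asked what digestion at 37C did to the family when transcription was left running. Without inhibitor, Fos, Fosb, Jun, Jund and Atf3 rose at 37C against 4C. In edgeR's quasi-likelihood test with Benjamini-Hochberg adjustment over all 3391 genes tested, 5 of the 7 members tested were called higher (adjusted p under 0.05), against 0.973% of all genes. None was called lower, against 0.0885% of all genes. The 7 members had a median log2 fold change of 3.06, against -0.01 for all genes tested.

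Fos, the founding member of the Fos family, gave 651 and 401 UMIs per 1000000 (CPM) in the 37C libraries and 0 and 0 CPM in the 4C libraries. Not 1 UMI of Fos was seen in the 133 annotated cells at 4C without inhibitor, which allows a share of cells with a UMI of up to 2.26% at their median depth of 592 UMIs, and sets no limit on cells that hold Fos RNA. The pooled level was at least 20.6-fold higher at 37C, against a floor of 3 counts over the 4C group, with an adjusted p of 0.000192. Fosb, its closest relative, gave 562 and 359 CPM at 37C and 0 and 15.4 CPM at 4C. Its pooled ratio was 54.0, with an exact 95% counting interval of 9.55 to 2148 because the 4C group held 1 UMI, and its adjusted p was 0.000285. For both genes the 37C libraries lay far above the 4C libraries.

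Fosl1, a member linked to invasion in carcinoma cells, gave 63.2 and 97.2 CPM at 37C and 56.9 and 61.4 CPM at 4C. It had too few UMIs to be tested (45 over all annotated cells), and the counting interval of its ratio of 1.36 reached from 0.573 to 3.70. Fosl2, the steadier relative, gave 322 and 213 CPM at 37C and 170.7 and 107 CPM at 4C. These groups did not overlap, but its log2 fold change of 0.97 ± 0.45 (SE) did not pass the test (adjusted p = 0.471, edgeR).

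Jun, the partner of most Fos proteins, gave 360.0 and 359 CPM at 37C and 37.9 and 46.1 CPM at 4C. Its log2 fold change was 3.06 ± 0.53 (SE, adjusted p = 0.00428, edgeR), and the aliquots within each group were close to each other. Jund, a Jun protein often tied to slower growth, gave 556 and 444 CPM at 37C and 170.7 and 107 CPM at 4C, a log2 fold change of 1.87 ± 0.41 (adjusted p = 0.0186, edgeR). Junb, which was the member with the most UMIs, gave 1156 and 814 CPM at 37C and 170.7 and 476 CPM at 4C. The groups did not overlap, but the 4C aliquots lay far apart and Junb missed the threshold (log2 fold change 1.57 ± 0.42, adjusted p = 0.0802, edgeR).

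Atf3, a stress-induced member of the ATF branch, gave 202 and 237 CPM at 37C and 18.97 and 15.4 CPM at 4C. Its log2 fold change was 3.62 ± 0.69 (SE, adjusted p = 0.00795, edgeR). At 4C this rests on 1 UMI in each library, and the counting interval of the pooled ratio of 12.96 ran from 3.46 to 109. Fos, Fosb and Jun stayed called with any 1 library left out. Atf3 was not called without 37C library A (adjusted p = 0.0746), 37C library B (0.191) or 4C library B (0.0683), all without inhibitor, and Jund was not called without 37C library A (0.0746) or 4C library B (0.167). Junb was called in 4 of the 8 such fits, with adjusted p of 0.000111 to 0.0265.

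**Figure D1:**
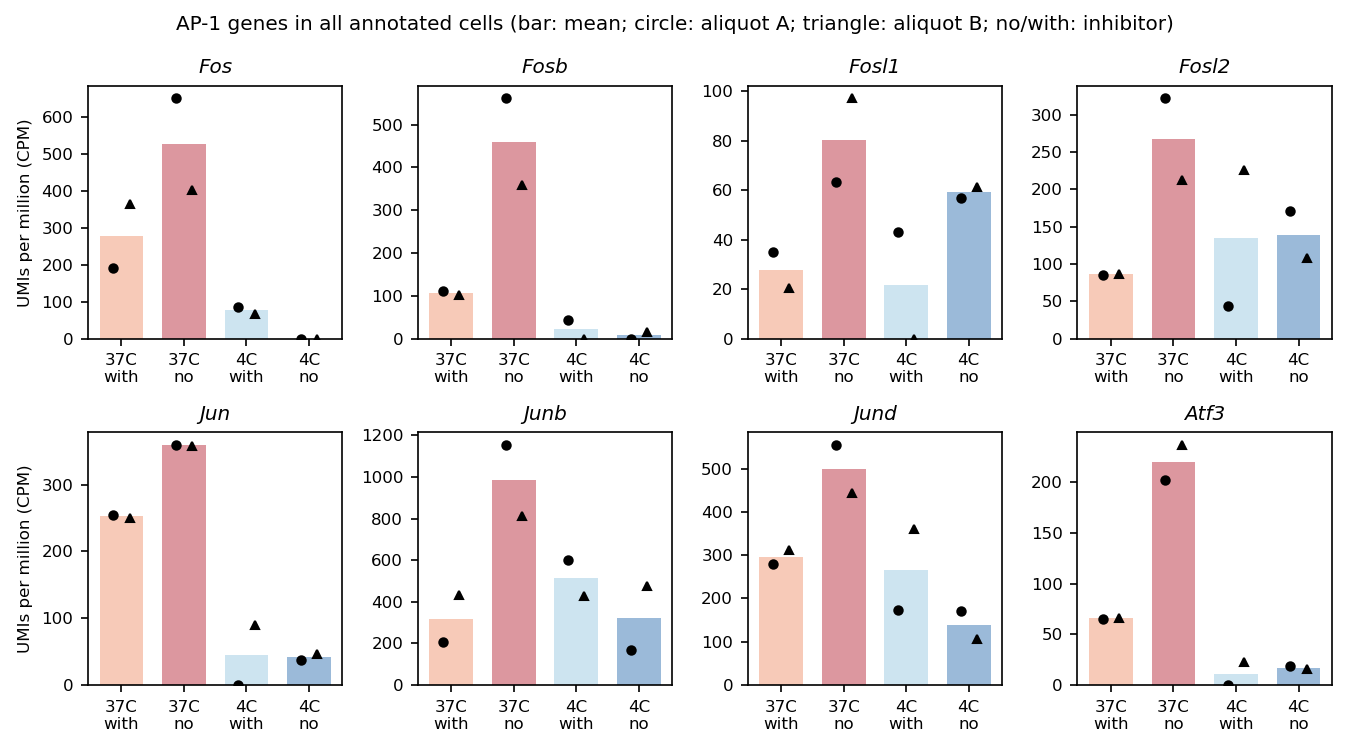
Levels of the 8 genes in UMIs per 1000000 (CPM, vertical axes, scaled per gene) summed over annotated cells, by temperature and inhibitor; bars are means of 2 aliquots, circles aliquot A and triangles aliquot B. Fos reached 651 and 401 CPM at 37C without inhibitor and 0 in both 4C libraries without it.

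Libraries differed in their mix of cell types, so the members were also tested on counts summed over tumour cells alone. There all 6 members tested rose at 37C without inhibitor, against 1.37% of the 1756 genes tested (0.74% were called lower). Fosl1 and Fosl2 had too few UMIs in tumour cells to be tested. Fos gave 996 and 558 CPM at 37C and 0 and 0 CPM at 4C (adjusted p = 1.68e-07, edgeR), and Fosb gave 698 and 443 CPM at 37C and 0 and 0 CPM at 4C (adjusted p = 1.68e-06, edgeR). The tumour cells at 4C without inhibitor thus held no UMI of either gene among 57 cells. Jun gave 538 and 425 CPM at 37C and 66.5 and 44.1 CPM at 4C, a log2 fold change of 3.11 ± 0.61 (SE, adjusted p = 0.00186, edgeR). Atf3 gave 286 and 319 CPM at 37C and 33.3 and 22.0 CPM at 4C, a log2 fold change of 3.41 ± 0.78 (adjusted p = 0.00965, edgeR).

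Junb in tumour cells gave 1110.0 and 717 CPM at 37C and 199.5 and 441 CPM at 4C (adjusted p = 0.037, edgeR), and Jund gave 618 and 452 CPM at 37C and 166 and 88.2 CPM at 4C (adjusted p = 0.0102, edgeR). The groups of both genes were apart, with log2 fold changes of 1.39 ± 0.38 for Junb and 2.11 ± 0.49 for Jund (SE). Without 4C library B, 3 members were called, because Jun (adjusted p = 0.0721), Jund (0.426) and Atf3 (0.249) were lost. Atf3 was also lost without 37C library B (0.222), and Junb without 37C library A (0.219) or 4C library A (0.311). DESeq2 called 1 of the 6 (Fos) and gave no adjusted p for Fosb, Jun and Atf3.

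The next comparison set the inhibitor against none at 37C, where actinomycin D was present through the digestion. Fosb, Fosl2, Junb and Atf3 fell with the inhibitor: 4 of the 7 members tested were called lower, against 1.06% of the 3391 genes tested (edgeR; 1.21% in either direction). The median log2 fold change was -1.60 for the 7 members and 0.01 for all genes. Fosb gave 110.0 and 102 CPM with inhibitor and 562 and 359 CPM without it, a log2 fold change of -2.08 ± 0.35 (SE, adjusted p = 0.00278). Junb gave 205 and 434 CPM with inhibitor and 1156 and 814 CPM without it (log2 fold change -1.60 ± 0.38, adjusted p = 0.0394). In both genes the higher library with inhibitor lay well below the lower library without it.

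Atf3 gave 65.0 and 66.4 CPM with inhibitor and 202 and 237 CPM without it (log2 fold change -1.70 ± 0.40, SE, adjusted p = 0.0348, edgeR). Fosl2 gave 85.0 and 86.9 CPM with inhibitor and 322 and 213 CPM without it (log2 fold change -1.60 ± 0.38, adjusted p = 0.0394, edgeR). Beside the change of Fosl2, T and NK cells, in which its level was highest, numbered 21 and 10 with inhibitor and 51 and 20 without it, among similar totals of cells (219 and 214). Within types, Fosl2 gave 70.9 CPM in tumour cells with inhibitor and 109.8 CPM without it, 78.4 and 458 CPM in macrophages, 155 and 466 CPM in T cells, and 322 and 852 CPM in NK cells, each pooled over aliquots and in the same order. The part of the cell mix in the Fosl2 result was not tested.

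Fos, Jun and Jund were less reduced and were not called. Fos gave 190.1 and 363 CPM with inhibitor and 651 and 401 CPM without it, with a log2 fold change of -0.90 ± 0.33 (SE, adjusted p = 0.303, edgeR). Jun gave 255 and 250.4 CPM with inhibitor and 360.0 and 359 CPM without it, a log2 fold change of -0.48 ± 0.31 (adjusted p = 0.798, edgeR). Jund gave 280.1 and 312 CPM with inhibitor and 556 and 444 CPM without it, a log2 fold change of -0.73 ± 0.31 (adjusted p = 0.476, edgeR). The 3 genes thus lay lower with inhibitor in each library, by amounts that did not pass the test. Fosl1, which was not tested, gave 35.0 and 20.4 CPM with inhibitor and 63.2 and 97.2 CPM without it.

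In tumour cells, Fosb (log2 fold change -2.21 ± 0.36, adjusted p = 9.74e-05), Atf3 (-2.03 ± 0.45, adjusted p = 0.0075) and Junb (-1.36 ± 0.30, adjusted p = 0.0075) fell with the inhibitor at 37C (edgeR, SE). These are 3 of 6 members tested, against 0.854% of the 1756 genes called lower (0.911% in either direction). Atf3 gave 76.3 and 73.3 CPM in tumour cells with inhibitor and 286 and 319 CPM without it. Fos gave 271 and 447 CPM in tumour cells with inhibitor and 996 and 558 CPM without it, and missed the threshold (-1.10 ± 0.31, adjusted p = 0.0752).

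The calls for the inhibitor at 37C depended on single libraries. Without 37C library A of the group without inhibitor, no member kept its call in either set of cells. Log2 fold changes were then -1.74 for Fosb, -1.34 for Junb, -1.83 for Atf3 and -1.29 for Fosl2 in all annotated cells. In tumour cells they were -1.85 for Fosb, -2.09 for Atf3 and -1.02 for Junb. In each fit without a 37C library, fewer of all genes were tested and called as well. Without library A of the group with inhibitor, only Fosb was called in either set of cells, and without its library B, Fosb and Junb were called in all annotated cells. Atf3 lost its call without any 1 of the 4 libraries at 37C, in either set of cells (adjusted p from 0.15 to 0.743), and Fosl2 lost it in 3 of those 4 fits (0.103 to 0.457). Fos in tumour cells was called in 3 of the 8 fits that left out a library (0.00569 to 0.0459). DESeq2's Wald test called 0 members in either set, although its log2 fold changes had the same signs.

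The last comparisons asked whether the temperature difference was seen with the inhibitor present, and whether it differed from that without it. With inhibitor, 0 of 7 members were called between 37C and 4C, against 1.8% of the 3391 genes (0.796% called lower). An unadjusted p under 0.05 (edgeR) was reached by 3 members, Fos, Fosb and Jun, and by 463 of the 3391 genes. DESeq2 also called 0 members. Fos gave 190.1 and 363 CPM at 37C with inhibitor and 86.2 and 67.7 CPM at 4C with it (log2 fold change 1.98 ± 0.62, SE, adjusted p = 0.134). Jun gave 255 and 250.4 CPM at 37C and 0 and 90.2 CPM at 4C (2.19 ± 0.61, adjusted p = 0.0725). Both genes had all 37C libraries above the 4C libraries, with 5 and 4 UMIs in the 4C group. With 4C library A or B without inhibitor left out, log2 fold changes were 2.14 and 2.14 for Fos and 2.35 and 2.34 for Jun. Those fits tested more genes, called more of them, and called both members. Without 37C library A with inhibitor, the value for Fos was 2.40 and Fos was called.

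Junb gave 205 and 434 CPM at 37C with inhibitor and 603 and 429 CPM at 4C with it, and Jund gave 280.1 and 312 CPM at 37C and 172 and 361 CPM at 4C. The log2 fold changes of -0.55 ± 0.45 for Junb and 0.14 ± 0.41 for Jund did not pass the test (adjusted p = 0.638 and 0.928, edgeR). In tumour cells, 0 of 6 members were called with inhibitor, against 0.0569% of the 1756 genes. An unadjusted p under 0.05 (edgeR) was reached by 2 members and by 140 of the 1756 genes. DESeq2 called 0 members there.

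At 4C, the inhibitor against none gave 0 calls among 7 members and 0% among the 3391 genes (edgeR; 1 member, Fos, and 172 genes at an unadjusted p under 0.05; 0 by DESeq2). Fos gave 2 and 3 UMIs at 4C with inhibitor and 0 and 0 without it, and every value of the family at 4C other than those of Junb, Jund and Fosl2 rested on 4 or fewer UMIs a library. The interaction of temperature and inhibitor was called for 0 of 7 members and 0% of genes (edgeR; 4 members and 250 genes at an unadjusted p under 0.05; 0 by DESeq2). All 7 interaction terms were negative, with a median of -1.76, against 0.08 for all genes. The term for Junb was -2.12 ± 0.62 (SE, adjusted p = 0.37) and that for Jund -1.74 ± 0.59 (adjusted p = 0.434). Without 4C library B of the group without inhibitor, which left 1 library there, the Junb term was -3.00 and was called. Over all barcodes, Junb and Fosl2 were called for the interaction (adjusted p = 0.0331 and 0.0451, edgeR), where 87 of 7515 genes were called. In annotated cells with all libraries, no member's temperature difference was shown to differ between the groups with and without inhibitor.

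**Figure D2:**
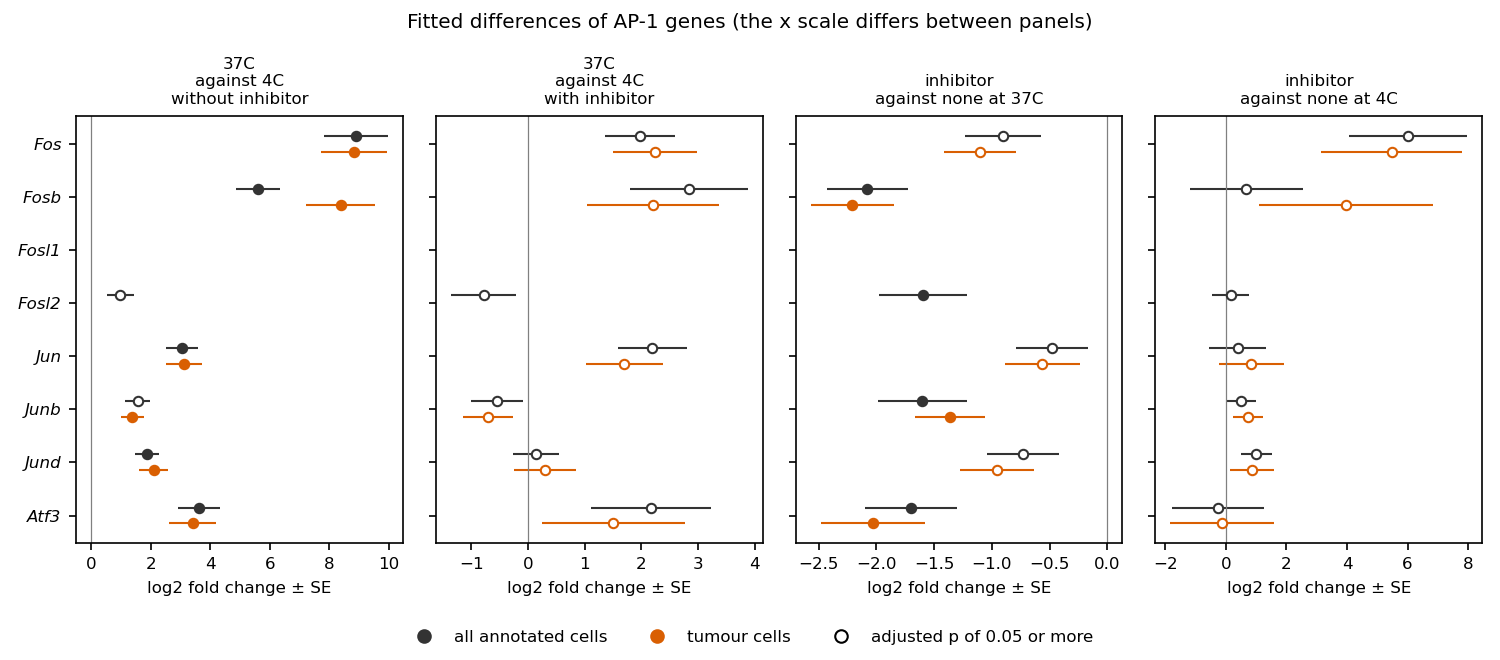
Log2 fold changes (horizontal axes, whose scale differs between panels) with standard errors from edgeR for each member in 4 contrasts, in all annotated cells (grey) and tumour cells (orange); open points have an adjusted p of 0.05 or more. Without inhibitor 5 of 7 members in all cells and 6 of 6 in tumour cells are filled on the right of 0; fitted values of genes with 0 UMIs in a group, such as Fos at 4C, depend on the prior count and are no bound.

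The members were spread unevenly over the 4 cell types. The types were named by the authors from expression in these cells, so their levels are given as a description with no test. At 37C, with both inhibitor groups pooled, tumour cells held 65.2% of the UMIs of all genes. They held 89.6% of Fos UMIs, 91.9% of Fosl1, 84.7% of Jun and 83.5% of Atf3. Their part was 75.8% for Fosb, 64.8% for Jund and 62.3% for Junb, nearer to that of all genes, and 34.2% for Fosl2. Pooling hid a difference between the groups for Junb and Fosl2. Tumour cells held 77.8% of Junb with inhibitor and 56.15% without it, and 55.9% and 25.6% of Fosl2. For all genes their part was 67.8% with inhibitor and 62.0% without it. With inhibitor at 37C, Fos reached 369 CPM in tumour cells, 89.6 in macrophages, 80.4 in NK cells and 38.8 in T cells. Without it, Fos reached 749 CPM in tumour cells, 229 in macrophages, 144 in T cells and 0 in NK cells. In both groups each tumour cell aliquot lay above each macrophage aliquot, while the aliquots of macrophages and T cells overlapped without inhibitor. Jun reached 328 CPM in tumour cells and 123 in macrophages with inhibitor, and 474 and 395 CPM without it, where the aliquots of both types overlapped. T and NK cells at 37C held only 2 and 1 UMIs of Jun, in 72 and 30 cells.

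Fosl2 had another order at 37C. With inhibitor it reached 322 CPM in NK cells, 155 in T cells, 78.4 in macrophages and 70.9 in tumour cells, and all neighbours in that order overlapped between aliquots. Without inhibitor it reached 852 CPM in NK cells, 466 in T cells, 458 in macrophages and 109.8 in tumour cells. There T cells and macrophages overlapped, while NK cells lay above both and tumour cells below both. Without inhibitor it was seen in 50% of NK cells (10 of 20, Clopper-Pearson 95% interval 27.2 to 72.8%) and 13.9% of tumour cells (15 of 108, 7.99 to 21.9%), although NK cells had a median of 824.5 UMIs and tumour cells 1547.5. At 4C no order could be read: the 6 UMIs of NK cells, 9 of T cells, 2 of macrophages and 10 of tumour cells were too few.

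Junb and Jund were seen in every type. The pooled order of the types differed between the inhibitor groups for both genes. It rests on few NK cells: at 37C with inhibitor, 10 cells held 2 UMIs of Junb and 8 of Jund. Whether the inhibitor changed the order was not tested. At 37C with inhibitor Junb reached 366 CPM in tumour cells, 233 in T cells, 224 in macrophages and 161 in NK cells. Without it, Junb reached 1381 CPM in T cells, 937 in macrophages, 906 in NK cells and 888.5 in tumour cells. Between aliquots, all neighbours in the Junb order overlapped with inhibitor, as did macrophages, NK cells and tumour cells without it. Jund reached 643 CPM in NK cells, 504 in T cells, 279.7 in tumour cells and 235 in macrophages with inhibitor. Without it, Jund reached 699.7 CPM in T cells, 524 in tumour cells, 266 in NK cells and 249.8 in macrophages. For Jund, aliquots of NK and T cells overlapped with inhibitor. Without it, T cells overlapped tumour cells, and NK cells overlapped macrophages. In T cells Junb gave 245 and 211 CPM at 37C with inhibitor and 1238 and 1567 CPM at 37C without it. Of the 77 Junb UMIs of T cells at 37C without inhibitor, 16 lay in 1 cell. Of the 230 genes testable in T cells, Junb was the only member, and it was not called there (inhibitor at 37C: log2 fold change -2.60 ± 0.64, SE, adjusted p = 0.0535, edgeR, 0.87% of genes called lower; 37C against 4C without inhibitor: 1.88 ± 0.60, adjusted p = 0.142, 0.435% of genes called higher).

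In macrophages at 37C, Fosb gave 73.2 and 0 CPM with inhibitor and 593 and 332 CPM without it, and Jun gave 123 CPM pooled with inhibitor and 395 CPM without it. The 17 macrophages at 4C held 0 UMIs of Fosb and 1 of Jun, in 11137 UMIs of all genes, which is too few to place a level.

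**Figure D3:**
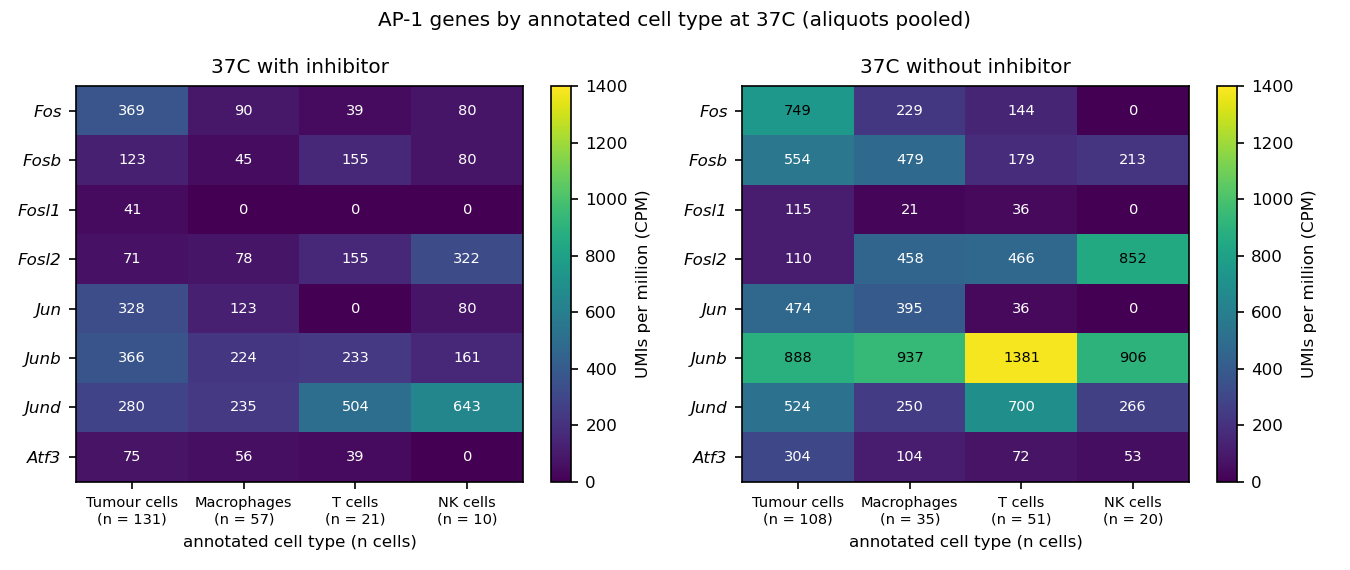
Level in UMIs per 1000000 (CPM, colour and printed value, both aliquots pooled) of each member (rows) in the 4 annotated cell types (columns, with numbers of cells), at 37C with inhibitor (left) and without it (right). In both groups Fos, Jun and Atf3 are highest in tumour cells and Fosl2 in NK cells. The pooled order for Junb and Jund differs between the groups, with aliquots of several types overlapping.

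Counted by cell, Fos, Fosb, Jun, Junb, Jund and Atf3 were detected in more tumour cells at 37C than at 4C without inhibitor, while Fosl2 was not. Without inhibitor at 37C, 52.8% of the 108 tumour cells held a Fos UMI, 44.4% Fosb, 47.2% Jun, 59.3% Junb, 44.4% Jund and 30.6% Atf3. Among the 57 tumour cells at 4C without inhibitor the shares were 0% for Fos and Fosb, 5.26% for Jun, 28.1% for Junb, 15.8% for Jund and 3.51% for Atf3. Median depths were 1547.5 UMIs at 37C and 1107 at 4C, so each cell was also reduced to 200 UMIs, which left out no cell. At that depth the expected share of tumour cells with a Fos UMI was 12.3% at 37C without inhibitor and 0% at 4C without it. For Jun it was 9.17% and 1.26%, for Junb 15.1% and 6.93%, for Jund 8.53% and 2.25%, and for Atf3 5.41% and 0.613%, in the same order. In each of these genes both 37C aliquots lay above both 4C aliquots. Fosl2 was seen in 13.9% of tumour cells at 37C and 14.0% at 4C, with expected shares at 200 UMIs of 2.40% and 2.89%, and Fosl1 in 18.5% and 7.02%, with expected shares of 2.71% and 1.88%.

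With inhibitor at 37C, the expected shares at 200 UMIs were 6.02% for Fos, 2.07% for Fosb, 6.18% for Jun, 7.14% for Junb and 0.931% for Atf3 in tumour cells. For Atf3 they were 0.775% and 1.04% in aliquots A and B with inhibitor and 5.31% and 5.47% without it. For Fosb they were 2.22% and 1.96% with inhibitor and 9.19% and 8.66% without it, so the aliquots of the groups did not overlap in either gene. Tumour cells of the 2 groups at 37C had nearly equal median depths (1557 and 1547.5 UMIs).

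**Figure D4:**
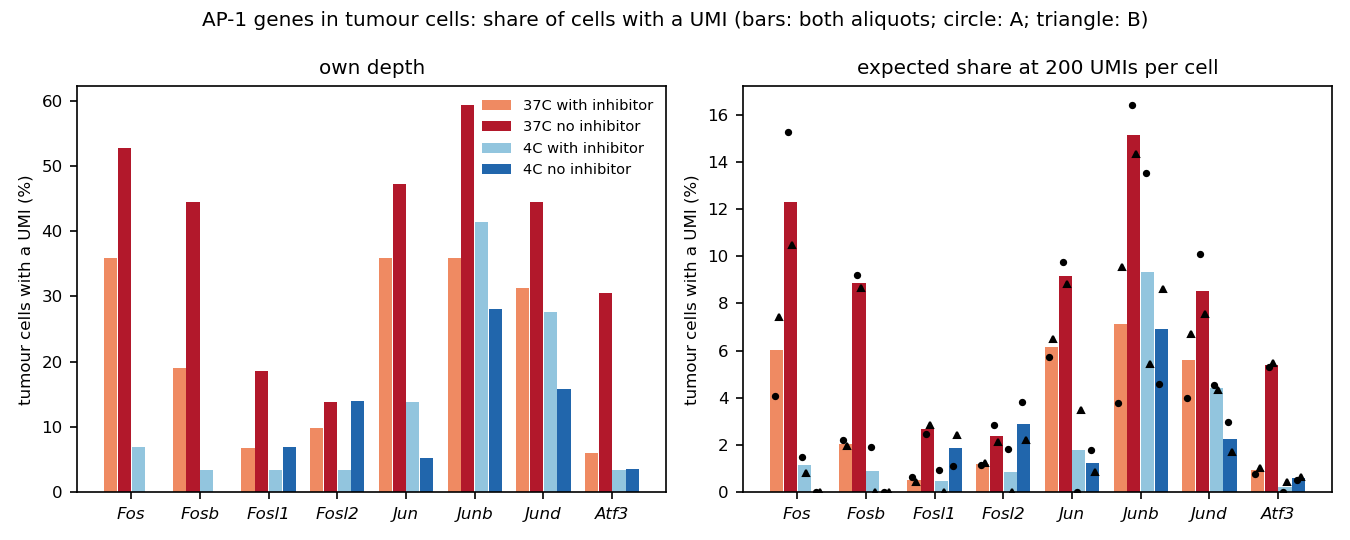
Share of tumour cells with at least 1 UMI of each member (percent), at the cells' own depth (left) and as the expected share at 200 UMIs a cell (right), in the 4 groups; bars pool both aliquots, and points in the right panel show aliquots A (circles) and B (triangles). The Fos share at 200 UMIs is 6.02% at 37C with inhibitor, 12.3% at 37C without it and 0% at 4C without it.

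Members were often seen in the same cells. At 37C, 66 of 108 tumour cells without inhibitor held UMIs of 3 or more members, and 43 of 131 did with it, while at 4C 3 of 29 did with inhibitor and 4 of 57 without it. The chance to see any gene grows with depth: in the 37C group without inhibitor, tumour cells with a Fos UMI had a median of 1962 UMIs, and those without one 1068. At 200 UMIs a cell, the expected share of tumour cells with any member was 24.2% at 37C with inhibitor, 46.9% at 37C without it, 17.3% at 4C with inhibitor and 13.9% at 4C without it. In T cells these shares were 22.4%, 37.0%, 13.9% and 16.8%, in the same order of groups. They were 18.9%, 41.8%, 24.9% and 15.7% in macrophages, and 22.5%, 37.5%, 27.7% and 9.31% in NK cells. The macrophage values at 4C come from only 6 cells with inhibitor and 11 without it. Those of NK cells come from 10, 20, 17 and 19 cells. No single cell carried more than 6% of the UMIs of any member, counted over all annotated cells.

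RNA outside the annotated cells carried the same genes. Barcodes with up to 100 UMIs, most of which hold free RNA rather than a cell, gave 625 CPM of Fos at 37C without inhibitor and 104.8 CPM at 4C without it. Fosb gave 719 CPM at 37C and 7.49 at 4C, Atf3 344 and 7.49, and Jun 464 and 127. At 37C without inhibitor 6 of the 8 members (Fos, Fosb, Fosl2, Jun, Jund and Atf3) were higher per UMI in these barcodes than in annotated cells. In annotated cells Fos gave 523 CPM, Fosb 458, Jun 359 and Atf3 219.9, while Junb and Fosl1 were lower in the small barcodes. The number of members higher in the small barcodes was 6 at 37C with inhibitor, 6 at 4C with inhibitor and 4 at 4C without it. The share of all genes was not counted, so nothing is read from these numbers. NK cells at 37C without inhibitor, in the same suspensions, held 0 UMIs of Fos and 0 of Jun in 20 cells, and the 51 T cells there held 8 of Fos, 10 of Fosb and 2 of Jun. In these T cells the 8 UMIs of Fos lay in 2 cells, the 10 of Fosb in 4 cells and 4 of Atf3 in 1 cell. These NK cells held 4 UMIs of Fosb in 4 cells and 1 of Atf3 in 1 cell. Whether free RNA contributed to these low values was not tested. Whether free RNA contributed to the tumour cell levels was not tested.

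**Figure D5:**
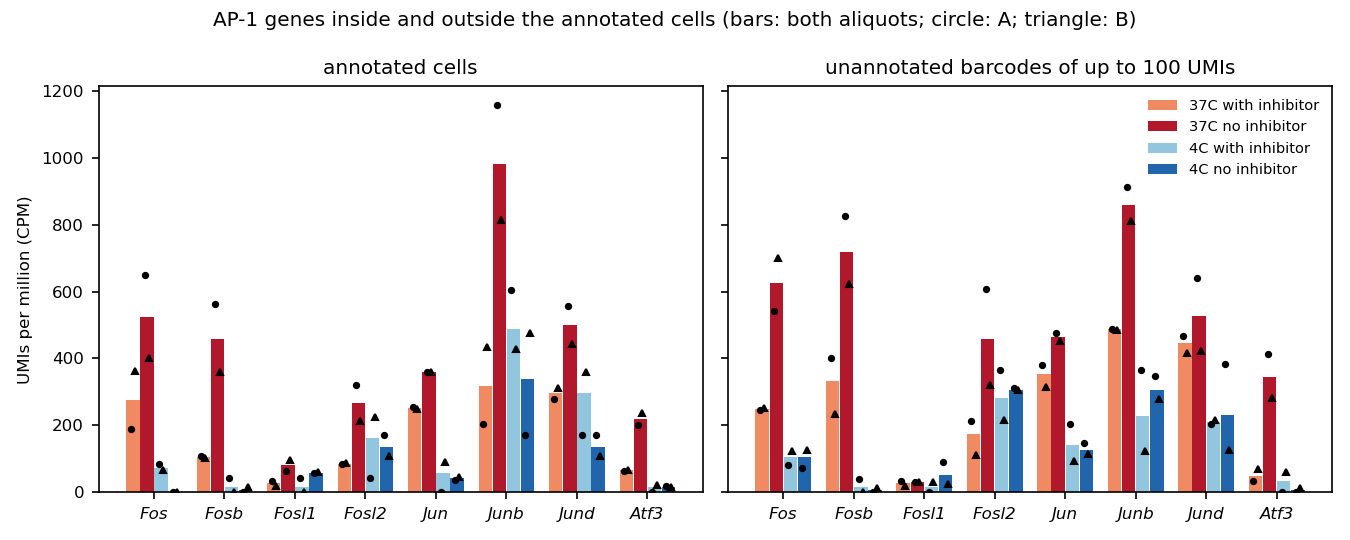
Levels of the 8 genes in UMIs per 1000000 (CPM) in annotated cells (left) and in unannotated barcodes of up to 100 UMIs (right), by group; bars pool both aliquots and points show aliquots A (circles) and B (triangles). Fosb and Atf3 reach 719 and 344 CPM in the small barcodes at 37C without inhibitor, against 458 and 219.9 CPM in annotated cells.

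Few partners and upstream genes of the family had enough UMIs to be tested. Of 29 other basic leucine zipper genes, such as Batf, Atf4 and the Maf and Cebp families, 12 were tested and 0 were called in any of the 5 contrasts (edgeR). Of 30 genes of the MAP kinase and serum response factor input to Fos and Jun, 15 were tested and 0 called. With 0% to 1.8% of all genes called in a contrast, in either direction, in annotated cells, such counts are near the background and nothing is read from them. Their median log2 fold changes at 37C against 4C without inhibitor were 0.16 for the partners and 0.00 for the input genes, against -0.01 for all genes tested.

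Among 33 genes known as AP-1 targets in various tissues, 18 were tested. Ccl2, a monocyte attractant, rose at 37C both without inhibitor (423 and 918 CPM at 37C, 170.7 and 76.8 CPM at 4C, log2 fold change 2.49 ± 0.48, SE, adjusted p = 0.0086) and with it (830.3 and 710.2 CPM at 37C, 43.1 and 0 CPM at 4C, adjusted p = 0.000466). Macrophages held 198 of its UMIs at 37C with inhibitor and 128 without it, and they numbered 57 at 37C and 6 at 4C with inhibitor, and 35 and 11 without it. In tumour cells alone Ccl2 was not called (adjusted p = 0.086 with inhibitor and 0.205 without it, edgeR). With inhibitor, summed over all annotated cells, Ccl5 was lower at 37C (455 and 271 CPM) than at 4C (689 and 2436 CPM, adjusted p = 0.0106). T and NK cells numbered 21 and 10 of 219 cells at 37C with inhibitor, and 36 and 17 of 88 at 4C with it, and in tumour cells Ccl5 gave 203 and 46.7 CPM at 37C and 0 and 42.5 CPM at 4C. The part of the cell mix in the results for Ccl2 and Ccl5 was not tested. Csf2, a growth factor of myeloid cells, fell with the inhibitor at 37C, to 0 UMIs in both libraries, against 16 and 41 without it, at least 23.3-fold lower (adjusted p = 0.00139). All 57 of those UMIs came from T cells, which numbered 21 with inhibitor and 51 without it, and within T cells Csf2 was at least 8.79-fold lower (floor of 3 counts over the group in both). Hbegf, a ligand of the EGF receptor, gave 85.0 and 61.3 CPM with inhibitor at 37C and 234 and 207 CPM without it (log2 fold change -1.55 ± 0.38, adjusted p = 0.0445).

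In tumour cells 11 of these targets were tested. Cxcl1, an attractant of neutrophils, rose at 37C without inhibitor (195 and 274 CPM at 37C, 0 and 44.1 CPM at 4C, adjusted p = 0.0432, edgeR). With the inhibitor at 37C, Hbegf fell too (log2 fold change -2.58 ± 0.48, SE, adjusted p = 0.00076), and Mt1, a metal-binding metallothionein, gave 203 and 367 CPM with inhibitor and 1053 and 434 CPM without it (adjusted p = 0.015).

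Over the 8 libraries, the genes whose log2 CPM ran most like that of a member were found among the 3391 tested, by Pearson correlation and as a description, since all points share their suspension in pairs and their depth follows temperature. For Fos these were Anxa2 (r = 0.938), Ube2e1 (0.936) and Clptm1l (0.926), and for Jun they included Dad1 (0.986) and Sec61a1 (0.971). For Junb they included Abi1 (0.980) and Rab8b (0.891). For Atf3 they were Nr4a2 (0.958), Cd44 (0.938) and Atp2b1 (0.938).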

How the data were processed

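The deposited library tables hold raw counts, UMIs per gene and barcode, not normalised. Another deposited table gives 654 cells as natural log values, made by the authors from counts per 10000 with 1 added. It was checked on the members: their values were 0 in the same cells as the counts, and in all 250 cells with 2 or more members they were proportional to the counts within a tolerance of 0.001. The deposited annotation names library and cell type. Per the submitters' processing notes, UMI-tools, STAR 2.7.1a, featureCounts 1.6.0, SAMtools and Seurat were used with GRCm38. Settings, cell filters, doublet handling and the rule for listing barcodes are not given in sources used here. Gene identifiers were matched to symbols without the version where versions differed (17520 of 17580 matched).

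Counts were summed per library over annotated cells, over tumour cells and over T cells (the types with 10 or more cells per library; T cells were added after seeing the data), filtered by filterByExpr, scaled by TMM and fitted with 4 groups in edgeR 4.0.16 (glmQLFit, glmQLFTest, two-sided, R 4.3.3), adjusted over all genes tested. The fit was tested on simulated data. DESeq2 1.42.0 was an alternative, and others are given with their effect below. CPM divides by all UMIs of the cells summed. Shares at 200 and 300 UMIs are exact expectations. Ratios carry exact 95% intervals, and where a group had 0 counts a floor of 3 counts over the group was used. Intervals and floors cover counting error only.

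The members, lists and motifs were chosen with earlier results of these data known. All members were named. Of the other lists, called genes were named, at most 4 per list and contrast, and for Fos, Jun, Junb and Atf3 the 3 genes most like each, of which some are not reported here. The main fits did not pair libraries across groups by the letters A and B. Python 3.11.15, NumPy 2.4.6, SciPy 1.17.1 and pandas 2.3.3 were used.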

Additional observations from a re-analysis of the deposited data

Results flagged for a closer look

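The report rests on annotated cells. Some barcodes of more than 100 and up to 5000 UMIs were not annotated by the authors. In these, 5 of the 8 members had both 37C libraries without inhibitor above all 4 libraries at 4C. The values below are given for the members picked by that rule. The share of all genes that met it was not counted, so nothing is read from the number of members. At 37C without inhibitor, pooled over 313 such barcodes, Fos gave 478.8 CPM, Fosb 411.6 CPM, Jun 386.4 CPM, Junb 999.6 CPM and Atf3 117.6 CPM. At 4C without inhibitor, in 235 barcodes, Fos gave 67.7 CPM, Fosb 0 CPM, Jun 101.5 CPM, Junb 305 CPM and Atf3 16.9 CPM. Why these barcodes were not annotated is not given in sources used here, and which cells they hold was not tested.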

How the results depend on the processing

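In all annotated cells, leaving out 1 library gave 3 to 6 calls for temperature without inhibitor (5 with all libraries), 0 to 2 for temperature with inhibitor (0), 0 to 4 for inhibitor at 37C (4), 0 to 0 for inhibitor at 4C and 0 to 1 for the interaction (0). In tumour cells the ranges were 3 to 6 (6), 0 to 1 (0), 0 to 4 (3) and 0 to 0. The numbers of all genes tested and called also varied between these fits, so nothing about the members is read from these ranges. With all libraries, 36, 61, 41, 0 and 0 of 3391 genes were called for the 5 contrasts. In tumour cells 37, 1, 16 and 0 of 1756 genes were called. Library totals in place of TMM, added after seeing the data, and DESeq2's size factors left every count of members called within 1.5 times. So did a total of at least 20 counts, which was run only for all annotated cells.

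DESeq2's Wald test called 0 members for inhibitor at 37C in all cells and 0 in tumour cells, and 1 in tumour cells for temperature without inhibitor. Of all genes for those 3 results it called 8, 1 and 5, where edgeR called 41, 16 and 37. With libraries thinned to 23212 UMIs, 438 genes and 2 members could be tested, and 0 were called in each contrast. Without a filter, temperature with inhibitor had 2 member calls in all cells, where 135 of 14517 genes were called. In tumour cells it had 1, where 23 of 12836 genes were called. Over all barcodes it had 4 member calls, where 795 of 7515 genes were called. The interaction there had 2 member calls, where 87 of 7515 genes were called. In the main fit of annotated cells, 61 and 0 of 3391 genes were called for these contrasts. The cause was not tested.

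The differences between libraries A and B correlated between groups at -0.028 to 0.239 over 3391 genes, and most between the groups at 37C. Whether libraries of the same letter share a batch was not tested. With the replicate block, member calls were 6, 0, 4, 0 and 0 for the 5 contrasts in all cells. Junb was added for temperature without inhibitor (adjusted p = 0.0286, edgeR). In tumour cells member calls were 6, 0, 3 and 0. Of all genes, the block called 56, 73, 50, 5 and 2 of 3391 in all cells, and 40, 1, 17 and 0 of 1756 in tumour cells.

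No called member changed sign. Uncalled ones did, on few UMIs at 4C. Over all barcodes, Junb for temperature with inhibitor turned to 0.31, and Atf3 and Jun for inhibitor at 4C to 0.66 and -0.13 (log2). The other reversals came from leaving out 1 library at 4C, where log2 values ranged as follows. Temperature with inhibitor ran from -0.10 to 1.14 for Jund and from -1.20 to 1.34 for Fosl2. Inhibitor at 4C ran from -3.20 to 3.74 for Fosb, from -0.12 to 1.43 for Junb, from -4.05 to 0.30 for Atf3 and from -5.32 to 0.98 for Jun. For Fosl2 it ran from -1.85 to 0.63, and was -0.20 without 4C library B of the group without inhibitor, while Fosb was -0.21 without its library A. The interaction ran from -5.80 to 1.12 for Fosb, from -2.00 to 2.36 for Atf3, from -2.23 to 0.27 for Fosl2 and from -1.46 to 4.85 for Jun. In tumour cells, inhibitor at 4C ran from 0.00 to 5.08 for Fosb and from -4.11 to 0.51 for Atf3, and from -5.06 to 1.51 for Jun.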
